A study of Mus musculus with 1024 samples.

Results

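Fatty acid handling was described for 10 genes of the aortic endothelium, *Fabp4*, *Cd36*, *Lrg1*, *Aqp1*, *Lpl*, *Gpihbp1*, *Fabp5*, *Cav1*, *Cav2* and *Pparg*, among 24422 genes counted. They were chosen because a small set of endothelial wells shared *Fabp4*, *Cd36*, *Lrg1* and *Aqp1*, so the sharing itself is a description and carries no test. Wells labelled endothelial were used where they held at least 20000 gene counts and 500 genes, which left 676 of 896. Among these, 29 wells held counts of both *Fabp4* and *Cd36*.

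Endothelial cells stand between the fats of the blood and the tissues that burn or store them. Lipoprotein lipase, held on the capillary wall by GPIHBP1, frees fatty acids from circulating triglyceride, and these are taken up with the help of CD36 and bound inside the cell by the fatty acid binding proteins FABP4 and FABP5. Caveolae, membrane pits built from caveolins, are abundant in the same cells, and PPARγ is a nuclear receptor for lipids that drives many of these genes. High expression of this set is known from capillaries of heart, muscle and fat, rather than from the lining of large arteries.

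The data are Smart-seq2 libraries of single cells from mouse aortas, 1 cell to a well. Smart-seq2 copies full-length polyadenylated RNA and has no molecular identifiers, so that a count is a read. All mice carried the strain label Amotl2flow/flow / Cdh5-RREert /ROSA26-EYFP on a C57BL/6 background, were 3 months old and came from both sexes. In the KO mice (*amotl2* ec-/ec-), tamoxifen had activated a Cre recombinase driven by the *Cdh5* promoter, so deletion and the EYFP reporter are limited to cells that use this promoter. The WT mice have the same strain label, and the sources used here do not say whether they received tamoxifen. The study used 6 mice of each genotype in 2 preparations. Since no label ties a well to a mouse, each preparation of a genotype counts here as 1 replicate. Cells were depleted of Cd45+ leukocytes and gated as Cd31+ (endothelial) or Cd31- (other aortic cells). The WT and KO wells of preparation 1 each had a plate of their own, which means that the effect of plate and that of genotype cannot be told apart in it, while those of preparation 2 shared a plate.

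The Cd31+ wells numbered 235 and 50 in WT preparations 1 and 2 and 302 and 89 in the KO preparations, with 108 Cd31- wells beside them. Total gene counts of the 4 Cd31+ sums ran from 8470943 to 94881185, and the median well held 58190 to 252839. *Amotl2* was at 59.9 and 94.0 CPM (counts scaled to the total gene counts of the sample) in WT and at 51.9 and 45.7 CPM in KO preparations 1 and 2, and counts over the whole gene do not resolve the deleted exon. EYFP was at 2.38 and 0.353 CPM in WT and at 113 and 85.5 CPM in KO. *Cdh5* and *Pecam1*, which define endothelium, had counts in 91.5% to 100% of wells of each Cd31+ sample and in 0% to 25.0% of wells of each Cd31- sample. No well of the Cd31+ gate held more than 1 of 7 macrophage markers, and *Lyz2* and *C1qa* were at 0 counts in all of them.

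Because *Cd36*, *Lrg1* and *Aqp1* were found in the same wells, the 250 bases before their start sites are shown (RefSeq, GRCm38.p6, written 5′ to 3′ on the strand of the gene). The table of promoters matched 6 of the 10 members. It held none for *Fabp4*, *Lpl*, *Gpihbp1* and *Fabp5*. Capitals mark a GC box (GGGCGG) or the PPAR half-site (AGGTCA, which reads TGACCT on the opposite strand), both searched on both strands. The *Cd36* window is chr5:17835897-17836146 on the minus strand, that of *Lrg1* is chr17:56121947-56122196 on the minus strand and that of *Aqp1* is chr6:55336049-55336298 on the plus strand. The start sites are those of RefSeq, so that the *Cd36* window lies inside the longer gene of GENCODE M21 given below and the *Lrg1* window overlaps the 5′ end of its gene.
Cd36: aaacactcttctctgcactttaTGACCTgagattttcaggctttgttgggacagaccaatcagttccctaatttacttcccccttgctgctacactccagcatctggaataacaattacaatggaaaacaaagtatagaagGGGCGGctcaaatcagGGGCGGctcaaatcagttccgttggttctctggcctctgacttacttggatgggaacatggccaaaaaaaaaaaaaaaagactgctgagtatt
Lrg1: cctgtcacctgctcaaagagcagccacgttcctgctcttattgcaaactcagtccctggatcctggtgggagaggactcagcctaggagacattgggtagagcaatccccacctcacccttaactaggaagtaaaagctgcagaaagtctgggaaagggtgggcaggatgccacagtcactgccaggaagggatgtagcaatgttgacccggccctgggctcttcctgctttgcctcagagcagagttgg
Aqp1: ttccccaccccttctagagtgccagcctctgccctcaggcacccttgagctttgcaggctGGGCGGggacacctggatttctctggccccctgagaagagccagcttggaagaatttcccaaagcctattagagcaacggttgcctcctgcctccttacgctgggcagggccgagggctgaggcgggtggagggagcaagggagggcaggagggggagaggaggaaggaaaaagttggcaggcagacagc
*Cd36* held 2 GC boxes and 1 half-site on the opposite strand. *Aqp1* held 1 GC box, and *Lrg1* held neither motif. Among 32851 promoter windows of this length, 32.7% held a GC box, 4063 windows or 12.4% held TATAAA, 4607 windows held the half-site, and 0.0335% held the direct repeat of the half-site with 1 base between its copies. None of these 3 windows held TATAAA or the direct repeat. The matches are matches of letters, and binding was not measured.

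*Fabp4* (chr3:10204088-10208576, minus strand) encodes the fatty acid binding protein of fat cells and capillary endothelium. It had counts in 98 of the 676 Cd31+ wells. *Cd36* (chr5:17781690-17888801, minus strand), which encodes the fatty acid translocase, had counts in 36 wells. They met in 29 wells, which is 29.6% of the *Fabp4* wells and 80.6% of the *Cd36* wells. These 29 wells made up 4.29% of the Cd31+ wells (95% exact binomial interval 2.89% to 6.10%, as all intervals here for counting error only).

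**Figure D1:**
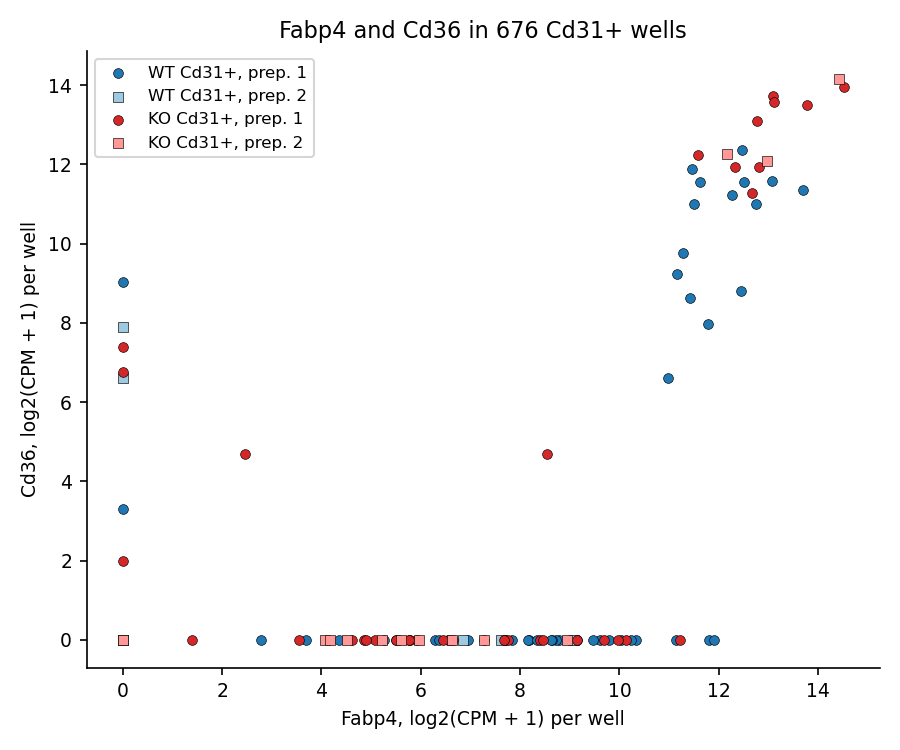
Level of Fabp4 (x axis) and Cd36 (y axis) in each of the 676 Cd31+ wells, both as log2(CPM + 1), with colour and shape for genotype and preparation. Most of the 29 wells with both genes lie at the upper right, and no well of WT preparation 2 is among them. The lowest Cd36 was in 2 KO wells, 1 of which also had the lowest Fabp4 (4.50 CPM). In the WT wells of the 29, Cd36 reached down to 96.8 CPM.

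The 29 wells were unevenly spread. WT preparation 1 gave 15 of 235 wells (6.38%, interval 3.62% to 10.3%) and WT preparation 2 gave 0 of 50, which allows a share of up to 6.00%. KO preparation 1 gave 11 of 302 wells (3.64%, 1.83% to 6.42%) and KO preparation 2 gave 3 of 89 (3.37%, 0.701% to 9.54%). The mean share was 3.51% ± 0.192 (SD, n = 2) in KO and 3.19% ± 4.51 (SD, n = 2) in WT. The difference of 0.315 percentage points was far within the spread of the WT preparations (two-sided exact permutation test, p = 1.00, and 2 against 2 cannot go below 0.333). The sign of this difference turned under 3 of 5 other ways to count the wells. None of the 108 Cd31- wells held both genes, which allows a share of up to 2.78%.

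Both genes were abundant in most of these wells. *Fabp4* ran from 4.50 to 23400 CPM with a median of 5596 CPM, and *Cd36* from 24.7 to 18324 CPM with a median of 3020 CPM. The wells nearest to the threshold were a KO well with 2 counts of *Fabp4* and another with 4 counts of *Cd36*. Outside it, the 69 wells with *Fabp4* alone had a median of 194 CPM and reached 3846 CPM, and the 7 wells with *Cd36* alone lay between 2.94 and 521 CPM. The 29 wells held 85.6% of all *Fabp4* counts of the Cd31+ gate and 99.6% of all *Cd36* counts. Their depth was close to that of the other wells, with a median of 134757 against 159988 gene counts, and 28 wells held both genes when each well was thinned to 20000 counts.

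*Lrg1* (chr17:56119678-56122001, minus strand), which encodes a secreted leucine-rich glycoprotein found in activated and venous endothelium, was present in 23 of the 29 wells at a median of 2550 CPM where detected. *Aqp1* (chr6:55336432-55348555, plus strand), the water channel of endothelium and red cells, was present in 24 of them at 1996 CPM where detected. All 4 genes together were found in 21 wells, of which 14 were from WT preparation 1, 5 from KO preparation 1 and 2 from KO preparation 2. In KO preparation 1, *Lrg1* was found in 6 of 11 wells and *Aqp1* in 7, against 15 and 14 of the 15 WT wells. This contrast is between 2 plates and was not tested.

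**Figure D2:**
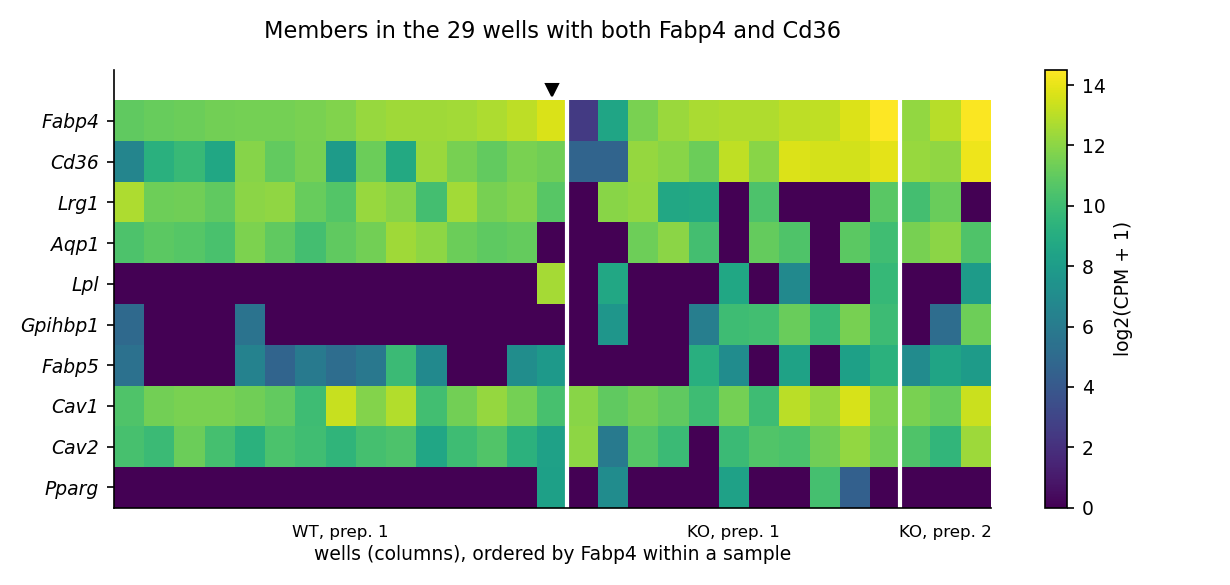
Level of the 10 members (rows) as log2(CPM + 1) in each of the 29 wells with both Fabp4 and Cd36 (columns), grouped by genotype and preparation and ordered by Fabp4. Lrg1 and Aqp1 fill the 15 WT columns apart from 1 gap in Aqp1, Gpihbp1 is bright mainly in the KO columns, and the triangle marks the WT well with adipocyte markers, which holds most of the Lpl.

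One WT well of the 29 went against its gate. It held 7 of 8 adipocyte markers, among them 21809 counts of *Cfd* (adipsin) and 3401 counts of *Adipoq* (adiponectin), and no count of *Cdh5*, *Pecam1* or any other of 8 endothelial markers. It also held 6155 counts of *Fabp4*, 1220 of *Cd36*, 2780 of *Lpl* and 143 of *Pparg*, so that 35.9% of the *Fabp4* counts of WT preparation 1 and 99.9% of its *Lpl* counts came from this well. Of the other 28 wells, 2 KO wells held *Cfd* and none held another of these markers. Levels below include this well unless stated. Another WT well, outside the 29, held 5 adipocyte markers at 1 to 52 counts together with 7 endothelial markers.

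The other genes of these wells were looked up to check the name given to the set. Since the wells were chosen by expression, the following are descriptions. Of 10 capillary markers, 9 were over 2-fold higher in the 29 wells (on the scale of mean CPM + 1) than in the 647 others. Among all genes with counts in 10 or more Cd31+ wells it was 1446 of 12340, a minimum that the markers were not held to. *Kdr*, a VEGF receptor, was found in 26 wells (89.7%) against 5.26% of the others, and *Meox2*, a transcription factor of capillary endothelium that regulates fatty acid transport, in 23 (79.3%) against 1.24%. Other capillary markers were found in few of the 29, with *Rgcc* in 7, *Car4* in 4 and *Btnl9* in 2. *Timp4* was found at about the same share in both, in 17.2% and 20.4%.

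Of 5 venous markers, 4 were over 2-fold higher in the 29 wells and 0 lower, and of 8 arterial markers 1 was higher and 5 lower. *Nr2f2*, the transcription factor of venous identity, was found in 24 of the 29 wells against 2.47% of the others, and *Ackr1*, the chemokine receptor of venules, in 8 against 0.618%. *Selp* (P-selectin) and *Vwf* (von Willebrand factor), which most wells expressed, were found in 72.4% against 85.2% and in 82.8% against 99.1%, with mean levels of 740 against 327 CPM and 5769 against 2899 CPM. *Ephb4*, a receptor of veins, was found in 72.4% against 56.6%. *Gja5*, the arterial gap junction protein connexin 40, was found in 3 of the 29 wells against 96.3% of the others, and *Gja4* in 5 against 91.3%. Arterial *Dll4*, a Notch ligand, was found in 51.7% against 31.1%, and *Hey1* in 10.3% against 10.8% at a mean of 61.6 against 11.6 CPM. *Emcn*, an endomucin of capillaries and veins, was found in 28 against 28.1%. The set held capillary, venous and some arterial markers, and lymphatic markers as given below. The capillary name was thus met in part, and the wells are called here by their rule.

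**Figure D3:**
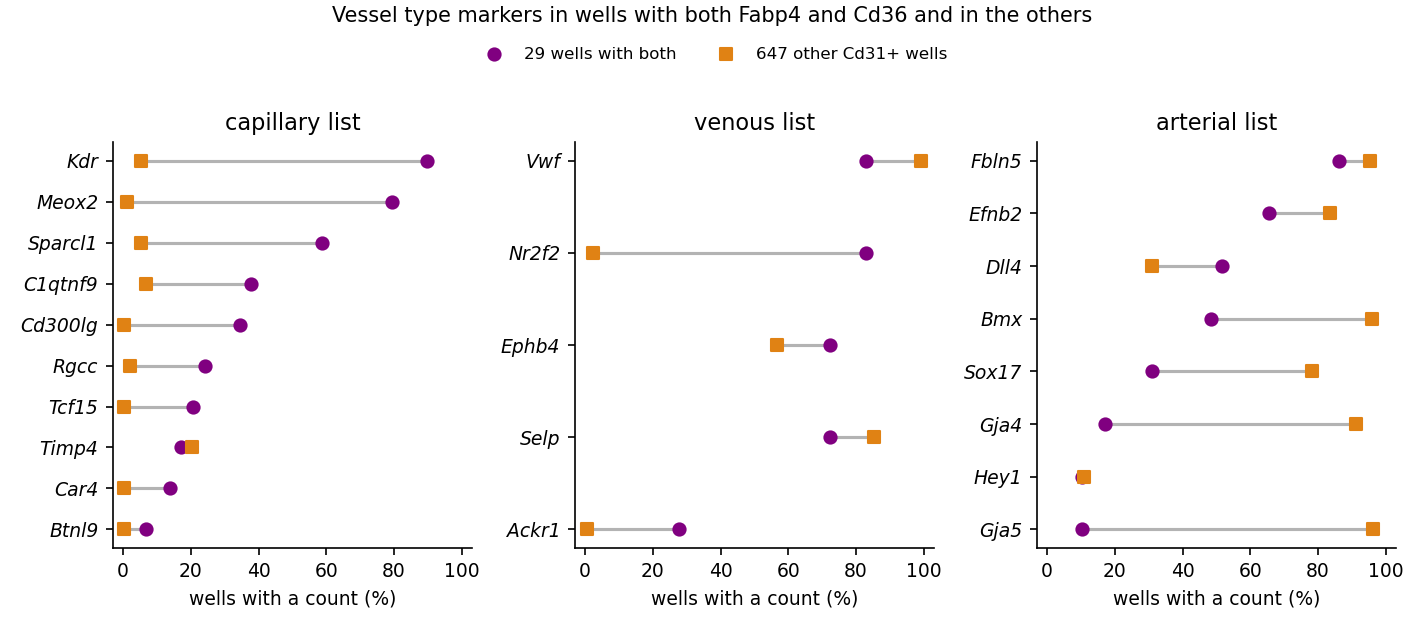
Share of wells with at least 1 count (x axis, percent) of each capillary, venous and arterial marker, as circles for the 29 wells with both Fabp4 and Cd36 and squares for the 647 other Cd31+ wells. Kdr, Meox2 and Nr2f2 are frequent in the 29 wells and rare elsewhere, and Gja5, Gja4 and Bmx show the reverse.

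Markers of other cells were also looked up. Of 5 smooth muscle markers, 4 were over 2-fold lower in the 29 wells, among them the actin *Acta2*, found in 3 wells at a mean of 5.47 CPM against 796 CPM in the other Cd31+ wells. The exception was *Tagln* (transgelin), found in 7 wells at 170 CPM against 157 CPM. Of 5 fibroblast markers, 4 were over 2-fold lower as well, while *Gsn* (gelsolin) was found in 14 of the 29 wells at 227 CPM against 329 CPM. Of the 5 pericyte markers, 4 were found more often than in the other wells, but in few of the 29. These were *Rgs5* in 4 wells of KO preparation 1, *Cspg4* in 2 wells and *Kcnj8* and *Abcc9* in 1 each. *Cspg4* had the lower mean in the 29 wells, 6.54 against 12.6 CPM. *Pdgfrb* went the other way and was found in 3.45% against 42.2%. Of 7 lymphatic markers, 5 were over 2-fold higher in the 29 wells and 1 was lower. *Prox1*, the lymphatic transcription factor, was found in 7 wells at a mean of 17.8 CPM, and the summed level of the 7 lymphatic markers ran from 0 to 8090 CPM with a median of 0. A well held up to 6 lymphatic and up to 5 pericyte markers, among the 29 as among the other Cd31+ wells. The part of such wells in the values of the members was not tested.

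The genes with the largest ratio between the 29 wells and the others, among those found in at least 15 of the 29, were *Cd36*, *Fabp4*, *Meox2*, *Aqp1*, *Pde2a*, *Lepr*, *Htr2b*, *Lrg1*, *Apold1*, *Nrp2*, *Clca3a1*, *Tnfrsf11a*, *Nr2f2*, *Lbp* and *Itga6*. *Pde2a*, a phosphodiesterase that breaks down cyclic nucleotides, was in 25 of the 29 wells and 2.01% of the others. *Lepr*, the receptor of the fat hormone leptin, was in 18 against 1.08%. *Nrp2*, a neuropilin of veins and lymphatics, was in 25 against 1.08%.

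Genes were also ranked by how they followed *Fabp4* and *Cd36* from well to well (Pearson r of log2(CPM + 1) within each of the 4 Cd31+ samples and weighted by their wells, over 12340 genes and 676 wells that share depth and plate within a sample). *Pde2a* came first for both, with r = 0.699 to *Fabp4* and 0.726 to *Cd36*. *Fabp4* and *Cd36* had an r of 0.635, with 0.652, 0.694 and 0.781 in WT preparation 1 and KO preparations 1 and 2 and -0.051 in WT preparation 2, which held no well with both. There *Pde2a* had -0.029 to *Cd36* and 0.655 to *Fabp4*. The next after them for *Fabp4* were *Csf2rb*, *Nrp2*, *Apold1*, *Itga6*, *Meox2*, *Kdr*, *Nr2f2* and *Aqp1*. For *Cd36* they were *Meox2*, *Nrp2*, *Nr2f2*, *Itga6*, *Kdr*, *Aqp1*, *Igf1* and *Apold1*. Among the members, *Lrg1* had 0.454 to *Fabp4* and *Gpihbp1* 0.425, while *Cav1* had -0.0963 and *Cav2* -0.0358, so neither caveolin had a positive weighted r to *Fabp4*. Within WT preparation 2 alone, *Cav1* had 0.0552 and *Cav2* 0.0823.

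Summed over all wells of a sample, *Fabp4* was at 429 and 10.3 CPM in WT preparations 1 and 2 and at 220 and 183 CPM in KO. The 2 WT sums thus lay on either side of the KO sums. In such sums, fewer expressing cells and less RNA per cell cannot be told apart. Without the 29 wells these fell to 63.4, 10.3, 34.7 and 8.79 CPM. *Cd36* was at 146 and 3.97 CPM in WT and at 176 and 151 CPM in KO, and at most 3.97 CPM was left in any sample without the 29 wells. WT preparation 2 was the sample with no well of both genes and the lowest of the 4 for both.

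*Lrg1* was at 388 and 0.794 CPM in WT and at 43.8 and 22.9 CPM in KO. *Aqp1* was at 177 and 2.56 CPM in WT and at 62.3 and 60.1 CPM in KO. Both thus had their highest and their lowest sum in WT. WT preparation 1, the highest, also stood apart in genes of antigen presentation, with *Cd74* at 3066 CPM against 27.4 to 59.9 CPM in the other Cd31+ samples and *H2-Aa* at 1333 against 44.2 to 93.2 CPM. Its 15 wells with both *Fabp4* and *Cd36* summed to 581 CPM of *Cd74* against 3269 CPM in its other Cd31+ wells, and to 331 against 1415 CPM of *H2-Aa*. On the scale of CPM per kilobase of transcript, which allows levels of different genes to be set side by side, WT preparation 1 had 479 for *Fabp4*, 276 for *Lrg1*, 67.5 for *Aqp1* and 42.8 for *Cd36*, and KO preparation 1 had 246, 31.1, 23.7 and 51.7. *Fabp4* led in both, and *Cd36* stood above *Lrg1* and *Aqp1* in KO preparation 1 and below them in WT preparation 1. In preparation 2, *Cd36* was above them in both genotypes, at 44.4 against 16.3 and 22.9 in KO and at 1.17 against 0.564 and 0.974 in WT. The WT order there rests on 45 counts of *Cd36*, 9 of *Lrg1* and 29 of *Aqp1*. One well gave 71.1% of these *Cd36* counts.

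*Gpihbp1*, which encodes the anchor of lipoprotein lipase, was at 0.951 and 0 CPM in WT and at 19.2 and 11.2 CPM in KO. It was found in 15 of the 676 wells, 12 of them among the 29. In KO these were 8 of 11 and 2 of 3 wells, with up to 2947 CPM, and in WT preparation 1 they were 2 of 15 wells with at most 44.7 CPM. WT preparation 1 held 38 counts of it and KO preparation 1 held 1824. In KO preparation 2, 97.9% of the counts came from 1 well.

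The wells with and without *Gpihbp1* were set side by side, in a split made after the values were seen. *Cd300lg*, a capillary receptor, was found in 9 of 12 wells with it and 1 of 17 without, and *Rgcc* in 6 and 1. *Car4*, the carbonic anhydrase of the capillary wall, was found in 4 and 0. *Kdr*, in 11 and 15, and *Meox2*, in 9 and 14, were frequent in both. Among venous markers, *Vwf* had a median of 109 CPM in the 12 wells and 8710 CPM in the 17 and *Nr2f2* was found in 8 and 16, while *Ackr1* was found in 4 and 4 and *Ephb4* in 9 and 12. Among arterial markers, *Sox17* was found in 7 and 2, *Hey1* in 3 and 0, *Gja4* in 3 and 2, *Gja5* in 0 and 3 and *Bmx* in 4 and 10. Since 10 of the 12 were KO wells and 13 of the 17 were WT wells of the other plate, the split and the genotype cannot be told apart in preparation 1.

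*Lpl*, the lipase itself, was at 69.6 and 0 CPM in WT and at 7.48 and 1.53 CPM in KO. Without the WT well of adipocyte markers, 2 counts were left in WT, against 710 and 13 in the KO preparations. *Lpl* was found in 16 Cd31+ wells, of which 6 were among the 29, and 5 of these 6 also held *Gpihbp1*. *Pparg* was at 3.96 and 0 CPM in WT and at 5.05 and 0 CPM in KO, in 7 wells, of which 5 were among the 29. Neither gene allowed a comparison of genotypes that did not rest on a few wells.

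*Fabp5*, the other binding protein of the set, was spread more widely. It was found in 193 Cd31+ wells and lay at 24.3 and 19.2 CPM in WT and 25.9 and 22.3 CPM in KO, and the genotypes overlapped. It was found in 18 of the 29 wells and in 27.0% of the others, and the others held 76.0% of its counts. A processed pseudogene, *Fabp5l2*, is annotated in the genome and has no row of its own in the table, so reads shared with it are uncertain.

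*Cav1* (chr6:17306335-17341452, plus strand) and *Cav2* (chr6:17281185-17289115, plus strand), neighbours that encode the caveolins of endothelium, were found in 674 and 665 of the 676 wells. *Cav1* was at 4104 and 5798 CPM in WT and at 4692 and 5598 CPM in KO. *Cav2* was at 1541 and 2125 CPM in WT and at 1583 and 2094 CPM in KO. Both were higher in preparation 2 of either genotype. The 29 wells held 2.53% and 3.19% of their counts, less than the share of the wells themselves, and the other genes of the caveolae list were within 2-fold of the other wells (0 of 7 beyond it).

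**Figure D4:**
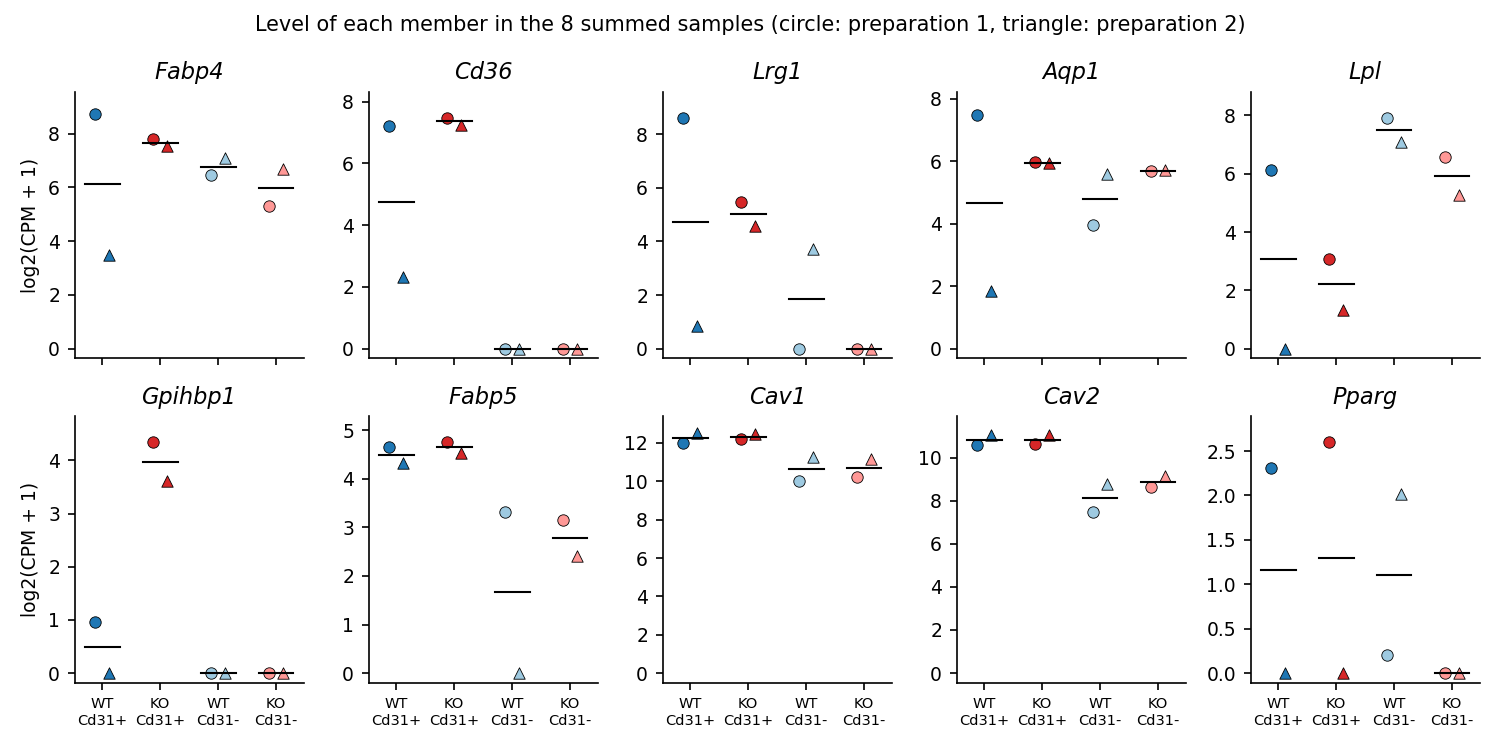
Level of each member as log2(CPM + 1) in the 8 sums of wells, by genotype and gate, with circles for preparation 1, triangles for preparation 2 and a line at the mean of the 2. For Fabp4, Lrg1 and Aqp1 the 2 WT Cd31+ preparations lie on either side of KO, while Cav1 and Cav2 overlap between WT and KO and are lower in Cd31- wells.

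Between KO and WT, edgeR's quasi-likelihood test on the 4 Cd31+ sums called 0 of 12702 genes at an adjusted p under 0.05 (0% called, 468 genes or 3.68% at an unadjusted p under 0.05, and 37 called by DESeq2). The log2 fold changes of the co-detected genes were -0.11 ± 1.04 (SE) for *Fabp4*, 1.14 ± 1.01 for *Cd36*, -2.54 ± 1.49 for *Lrg1* and -0.54 ± 1.12 for *Aqp1*, each with an adjusted p of 1.000 by edgeR. *Gpihbp1* had the largest value of the members, 4.80 ± 1.17 (edgeR), and DESeq2 gave 4.84. It held 38 and 0 counts in WT and 1824 and 95 in KO, and 1 well gave 97.9% of the counts of KO preparation 2. The gene thus entered the fit through the KO sums, where it was high, so that its p is not given. *Lpl* was at -2.92 ± 1.64 and *Pparg* at 0.30 ± 1.97. *Fabp5*, *Cav1* and *Cav2* were at 0.15 ± 0.39, 0.07 ± 0.29 and 0.02 ± 0.30. The KO and WT sums did not overlap for *Cd36* and *Gpihbp1*, 2 of the 10 members and both higher in KO, where 14.9% of all genes did so.

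These values rested on the WT preparations. Without WT preparation 1, edgeR gave 4.26 for *Fabp4*, 5.34 for *Cd36*, 5.35 for *Lrg1* and 4.56 for *Aqp1*. Without WT preparation 2 instead, *Fabp4* was at -1.07, *Lrg1* at -3.52 and *Aqp1* at -1.51. Each of these fits held 1 WT sum and thus no spread between WT preparations, so their p-values are not given. *Fabp4* was at 429 CPM in WT preparation 1 and at 278 CPM there without the well of adipocyte markers. In KO it was at 220 and 183 CPM. *Gpihbp1* was higher in KO with either WT preparation left out, at 12.23 and 4.01 (edgeR). The first of these rests on a WT sample with 0 counts, and both reuse the KO sums through which the gene entered the fit. Within preparations, the difference of log2(CPM + 1) between KO and WT was -0.96 in preparation 1 and 4.02 in preparation 2 for *Fabp4*, -3.12 and 3.74 for *Lrg1* and -1.49 and 4.10 for *Aqp1*. For *Gpihbp1* it was 3.37 and 3.61, and for *Cd36* 0.27 and 4.93. With the preparation as a block, the fold changes of *Fabp4*, *Lrg1* and *Aqp1* turned to 1.51, 0.05 and 1.23, and no member was called.

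**Figure D5:**
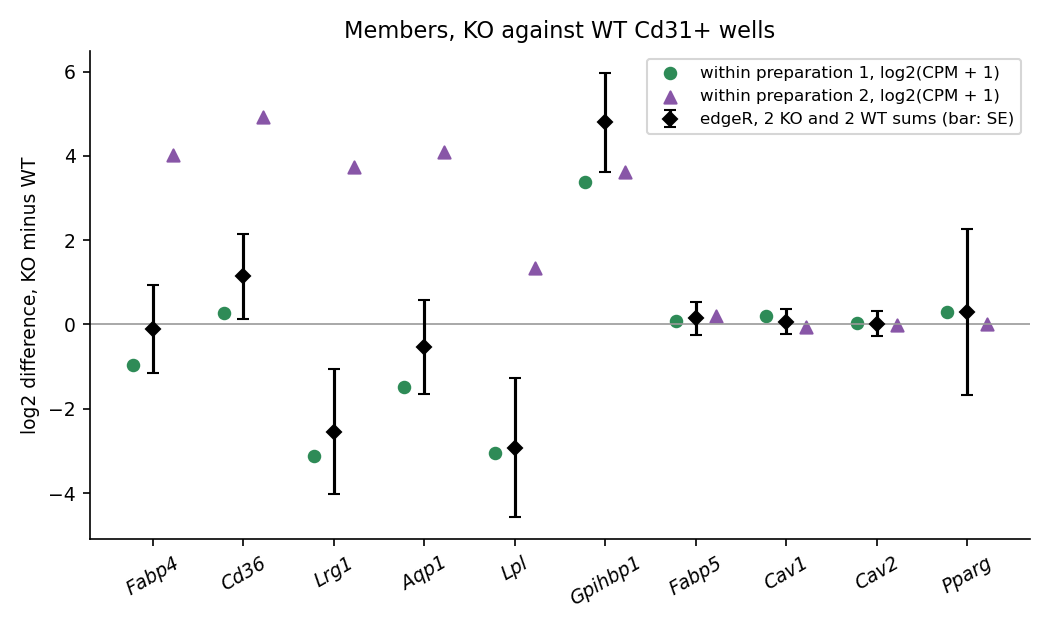
Log2 difference between KO and WT Cd31+ wells (y axis) for each member, as edgeR's fold change over 2 KO and 2 WT sums with its standard error (diamonds) and as the difference of log2(CPM + 1) within preparation 1 (circles) and preparation 2 (triangles). Fabp4, Lrg1, Aqp1 and Lpl lie below 0 in preparation 1 and above 0 in preparation 2, and Gpihbp1 is at 3.37 and 3.61.

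None of 55 tested genes of lipolysis, uptake, binding, storage, oxidation, regulation and caveolae was called between KO and WT, their median log2 fold change was -0.01 against 0.00 over all genes, and 2 had an unadjusted p under 0.05 (edgeR). The EYFP reporter had counts in 8 of the 11 wells with both *Fabp4* and *Cd36* of KO preparation 1 against 76.6% of the others there and in 2 of 3 against 86.0% in KO preparation 2.

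Between the preparations, with genotype in the model, edgeR called 4 of 12702 genes, all lower in preparation 2 (0.0315% called, and 900 genes or 7.09% at an unadjusted p under 0.05), and no member. *Fabp4* was at -2.63 ± 1.02 in preparation 2 against 1, *Lrg1* at -4.13 ± 1.54 and *Aqp1* at -2.70 ± 1.22 (edgeR, adjusted p = 0.656, 0.643 and 0.693). *Cav1* was at 0.50 ± 0.18 and *Cav2* at 0.55 ± 0.20 (edgeR, adjusted p = 0.643 for each). The sums did not overlap for 6 members that were lower and 2 that were higher in preparation 2, beside 28.4% and 12.2% of all genes. Smooth muscle and pericyte markers moved with the preparation as well, with 4 of 5 smooth muscle and 4 of 5 pericyte markers lower in preparation 2 without overlap, and their part in the members' values was not tested.

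The Cd31- wells, which hold smooth muscle and fibroblast cells, gave the level of the members outside the endothelial gate. A Cd31- well held up to 6 of 8 endothelial markers. Among the 12 Cd31- wells of WT preparation 2, 1 well gave 96.6% of the *Pecam1* counts, and all 38 *Cdh5* counts came from 1 well. Such wells were kept in the sums. *Cd36* and *Gpihbp1* were at 0 counts in all 108 wells. Relative to a floor of 3 counts over the summed Cd31- wells, *Cd36* was at least 923-fold and *Gpihbp1* at least 75.9-fold higher in the Cd31+ sums. Among 11579 genes, edgeR called 2214 (19.1% called), with 1108 higher in Cd31+ wells (9.57%) and 1106 lower (9.55%). The sums of the gates did not overlap for *Cd36*, *Fabp5*, *Cav1* and *Cav2*, higher in Cd31+ wells, and for 0 members that were lower, beside 17.4% and 9.41% of all genes. *Cd36* entered the fit through the Cd31+ wells alone, where it had been chosen, so that its p is not given. Of the 7 other members tested, edgeR called 2, both higher, namely *Cav1* with a log2 fold change of 1.38 ± 0.32 (edgeR, adjusted p = 0.0114) and *Cav2* with 2.08 ± 0.35 (edgeR, adjusted p = 0.00188). *Gpihbp1* and *Pparg* did not pass the filter on low counts. *Cav1* lost the call without KO preparation 1 (edgeR, 1.32, adjusted p = 0.0578). Because the members were picked from Cd31+ wells, their position in this comparison is partly given by the choice.

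*Fabp4* was also found outside the endothelial gate. It lay at 86.7, 136, 38.8 and 101 CPM in the Cd31- sums of WT preparations 1 and 2 and KO preparations 1 and 2, in 54 of 108 wells. Its log2 fold change between the gates was 1.09 ± 0.78 (edgeR, adjusted p = 0.409), and without the 29 wells it turned to -1.76 (edgeR, adjusted p = 0.0803). In the 70 Cd31- wells with a higher summed CPM of smooth muscle than of fibroblast markers, *Fabp4* was found in 72.9% and *Aqp1* in 51.4%, and in the 38 with more fibroblast marker counts in 7.89% and 0%. *Acta2* was found in 39.1% of the 69 Cd31+ wells with *Fabp4* and no *Cd36* and in 32.7% of the wells with neither gene, with means of 3661 and 454 CPM. In the same 2 classes, *Myh11* was found in 17.4% and 3.85%, *Rgs5* in 5.80% and 1.40% and *Dcn* in 23.2% and 22.8%. Vessel markers differed as well, with *Kdr* in 15.9% and 4.03%, *Nr2f2* in 14.5% and 1.05%, *Meox2* in 7.25% and 0.525% and *Gja5* in 73.9% and 98.9%. The source of *Fabp4* in these 69 wells was not tested.

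*Aqp1* was at 14.6, 47.6, 50.6 and 51.8 CPM in the 4 Cd31- sums, with a log2 fold change of 0.76 ± 0.86 for Cd31+ over Cd31- (edgeR, adjusted p = 0.636). *Lpl* was at 239, 135, 93.3 and 37.8 CPM there, above the KO Cd31+ sums and WT preparation 2, and was found in 73.7% of the 38 wells with more fibroblast marker counts against 2.86% of the 70 others. Its log2 fold change was -2.80 ± 1.32 (edgeR, adjusted p = 0.188), and without the wells of adipocyte markers it was -5.89 (edgeR, adjusted p = 0.0123). With genotype and preparation as a replicate block it was -4.11 (edgeR, adjusted p = 0.0426). *Fabp5* was at 9.04, 0, 7.95 and 4.32 CPM in Cd31- wells, below all 4 Cd31+ sums, with 1.85 ± 0.71 (edgeR, adjusted p = 0.102). *Lrg1* was found in 2 of the 108 wells.

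Other fatty acid genes were set beside the members in this comparison. Of 54 tested genes of the lists, members included, 10 were higher in Cd31+ wells and 10 lower by edgeR, where 9.57% and 9.55% of all genes were, with a median of -0.06 against 0.04 over all genes. Of the 10 higher, 3 were the members *Cd36*, *Cav1* and *Cav2*. Since *Cd36* entered the fit through the Cd31+ wells alone, the count of higher genes is partly given by the choice. *Scarb1*, the HDL receptor, was higher by 2.41 ± 0.70 (edgeR, adjusted p = 0.0339), and *Acsl5*, an enzyme that activates fatty acids, by 1.59 ± 0.31 (edgeR, adjusted p = 0.00418). *Cavin2*, a coat protein of caveolae, had the lowest p of the lists at 4.41 ± 0.35 (edgeR, adjusted p = 3.12e-05). The very low density lipoprotein receptor *Vldlr* was at -4.74 ± 0.49 and *Fabp3*, the heart binding protein, at -5.79 ± 1.07 (edgeR, adjusted p = 9.59e-05 and 0.00313).

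Inside the 29 wells, the same lists split by role, again as a description. Leaving out the members, 4 of 9 genes of lipolysis and uptake were over 2-fold higher than in the other Cd31+ wells, and 7 of 8 genes of storage and release were. Among all genes with counts in 10 or more Cd31+ wells the share was 11.7%. Without the 2 wells of adipocyte markers, 1 of which was among the 29, these counts were 3 of 9 and 3 of 8, and that share was 11.4%. *Scarb1* was found in 21 of the 29 wells against 22.3% of the others and *Lipe*, the hormone-sensitive lipase, in 17 of 29 against 110 of 647. Of 11 genes of fatty acid oxidation, 0 were beyond 2-fold in either direction. *Flt1*, a receptor of VEGF-B, which promotes fatty acid transport through endothelium, was found in 25 against 31.4%, while its co-receptor *Nrp1* was found in 25 against 95.7%.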

How the data were processed

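Counts of reads per gene and well were deposited by the authors, who aligned reads with STAR 2.7.7a to GRCm38, removed duplicates with Picard 2.22.0 and counted with HTSeq 0.9.1 (the submitters' processing notes). The annotation release is not given in the sources used here. Reads aligned to more than 1 place (32.0% of all counts) and the other summary lines (46.9% together) were left out, as were spike-ins (1.25%). Wells with at least 20000 gene counts and 500 genes were kept, and no doublet caller was run on the sorted single cells.

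Wells were grouped by the genotype, gate and preparation of their labels and summed to 8 samples. The preparations pair the samples, since each is a shared batch by the series' design text, and deviations from the genotype means correlated by 0.115 between samples of the same preparation. The replicates are preparations, and p-values measure the spread between them. Sums were tested with edgeR 4.0.16 (glmQLFit, TMM, filterByExpr, Benjamini-Hochberg adjustment, threshold 0.05, no block, genotype as covariate only between preparations). DESeq2 1.42.0 was the alternative, in R 4.3.3. The tests were checked on simulated counts. Well shares have exact binomial (Clopper-Pearson) intervals, and where no well was found the limit is 3 wells of the total. Python 3.11.15 with numpy 2.4.6, pandas 2.3.3 and scipy 1.17.1 gave the other values. Coordinates are those of GENCODE M21, which held 95.7% of the gene symbols, and transcript lengths are those of its principal transcripts.

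The members, the lists of fatty acid genes and of cell type markers, and the tests were chosen with earlier results of these data known. Named are the members, *Amotl2*, EYFP, *Cdh5* and *Pecam1*, genes of these lists, the 15 genes with the largest ratio of the wells with both genes over the others, and the 10 genes most like *Fabp4* and *Cd36*. Other settings tried were the replicate block, DESeq2, RLE factors, all genes without filterByExpr, the samples left out in turn, deeper or thinned wells, wells with a *Cdh5* or *Pecam1* count, wells without both genes and, added after the data were seen, leaving out 2 wells with adipocyte markers. The list counts without the members were added then too. *Cd74* and *H2-Aa* were chosen after their values were seen.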

Additional observations from a re-analysis of the deposited data

Results flagged for a closer look

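The difference between KO and WT Cd31+ wells pointed in opposite directions in the 2 preparations for 6 members. On the scale of log2(CPM + 1), preparation 2 exceeded preparation 1 in this difference by 4.98 for *Fabp4*, 6.86 for *Lrg1*, 5.60 for *Aqp1* and 4.40 for *Lpl*. For *Cav1* and *Cav2* it was -0.24 and -0.06. Each preparation holds 1 sample of each genotype, so the disagreement was not tested. For the first 4 the lowest Cd31+ sample was WT preparation 2, which had 50 wells and none with both *Fabp4* and *Cd36*.

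Wells below the minimum of 20000 gene counts or 500 genes were not used in the comparisons. Among the 220 Cd31+ wells of this kind, 10 held both *Fabp4* and *Cd36*, 7 of them in WT preparation 1 and 3 in KO preparation 1, and none of the 20 Cd31- wells of this kind did.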

How the results depend on the processing

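The number of genes called between KO and WT, 0 as tested, was 1 with the preparation as a replicate block, 1 with RLE factors, 1 in wells with a *Cdh5* or *Pecam1* count, 8 in thinned wells, 37 by DESeq2 and 104 without a filter, and 5 to 311 with a sample left out (311 and 221 without WT preparations 1 and 2, 5 and 35 without KO preparations 1 and 2). Between preparations, 4 genes were called as tested, 0 without a replicate block for genotype, 0 with RLE factors, 17 in thinned wells, 65 without a filter, 82 by DESeq2, 23 without the wells of both genes and 30 without the wells of adipocyte markers. Between the gates every alternative stayed within 1.5 times the 2214 genes called.

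Log2 fold changes that turned between KO and WT were these. *Fabp4* (-0.11) went to 1.51 with the replicate block, 0.78 thinned, 0.49 with a *Cdh5* or *Pecam1* count and 0.48 without the wells of adipocyte markers, and ran from -1.07 to 4.26 with a sample left out. *Lrg1* (-2.54) and *Aqp1* (-0.54) went to 0.05 and 1.23 with the block, and ran from -3.52 to 5.35 and from -1.51 to 4.56 with a sample left out. *Cd36* (1.14) went to -3.12 without the wells of both genes. *Lpl* (-2.92) went to 5.94 without them, 6.85 with a *Cdh5* or *Pecam1* count and 10.46 without the wells of adipocyte markers, and ran from -4.38 to 10.46 with a sample left out. *Fabp5* (0.15) went to -0.19 in wells of 100000 or more counts. *Cav1* (0.07) and *Cav2* (0.02) went to -0.01 and -0.07 thinned, and ran from -0.18 to 0.37 and from -0.30 to 0.30 with a sample left out. *Pparg* (0.30) ran from -8.30 to 9.62. Values beyond 5 rest on a group at or near 0 counts and depend on edgeR's prior count. *Gpihbp1* stayed higher in KO in every alternative that kept it, from 3.79 to 12.23. These fits reuse the KO wells through which the gene entered, or a part of them, so the kept sign is no separate support.

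Between the gates, *Fabp4* and *Aqp1* turned to -1.76 and -2.09 without the wells of both genes, and *Aqp1* ran from -0.41 to 1.24 with a sample left out. Without WT preparation 2, whose Cd31+ sample held 0 wells with both genes, edgeR called *Fabp4* at 1.75. As *Fabp4* was chosen from Cd31+ wells, this call is partly given by the choice, and its p is not given. DESeq2 called *Fabp5* at 1.81 (adjusted p = 0.0122). With the replicate block *Lpl* was called. Taking each member in each setting as a case, a call was gained without a turn in sign in 10 cases between the gates and in 7 between preparations. In 1 case between the gates a call was lost. Calls of members also changed between KO and WT, among them with a sample left out, where 1 genotype held a single sum. Between preparations *Cd36* turned to 0.77 without the wells of both genes, and *Fabp5* to 0.37 thinned and 0.20 without those wells. The KO minus WT difference in the share of wells with both genes (0.315 points) was -0.0160 with 5 or more counts of each, -0.0438 in wells of 100000 or more counts and -0.119 with no minimum. The number of such wells stayed between 19 and 39. The cause of these changes was not tested. The depth behind *Gpihbp1*, *Lpl* and *Pparg* was limited, with at most 16 Cd31+ wells holding any of them, and 1 well held 99.9%, 97.9% and 90.5% of the counts of *Lpl* in WT preparation 1, *Gpihbp1* in KO preparation 2 and *Pparg* in WT preparation 1.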

Other observations

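Some genes were frequent in the other Cd31+ wells and nearly missing from the 29 wells with both *Fabp4* and *Cd36*. They were picked by their values. *Pcolce2*, which encodes an enhancer of collagen processing, had counts in 75.7% of the other wells and in 0 of 29. *Hey2*, a Notch target of arteries, had counts in 72.0% and 0, and *Col4a3* and *Col4a4*, chains of basement membrane collagen, in 65.5% and 70.9% and in 0 of 29 each. *Sfrp1*, a secreted Wnt antagonist, had counts in 93.2% of the other wells and in 6 of 29.

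Positions on the plates were compared as well. In WT preparation 1, 6 of the 15 wells with both genes touched another such well, and in KO preparation 1 it was 2 of 11. In WT preparation 1, *Fabp4* was found in 16.4% of the 61 Cd31+ wells next to one of them and in 13.2% of the 159 further away. In KO preparation 1 the shares were 9.09% of 55 and 8.90% of 236, and in KO preparation 2, whose plate also held WT wells, 7.14% of 14 and 9.02% of 122.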
